A study of Mus musculus with 6 samples.

Results

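Adventitial fibroblasts of the mouse lung were picked out of 4 single-cell libraries by their marker RNAs. A barcode counted as a lung cell if it held at least 1500 unique molecular identifiers (UMIs, each standing for 1 captured RNA molecule) in the Bdnf libraries or at least 700 in the Hgf libraries, with no more than 25% of them from mitochondrial genes. A member had at least 3 of the 6 genes Pi16, Mfap5, Scara5, Dcn, Serpinf1 and Fbln1 detected, among them Pi16, Mfap5 or Scara5. It also held at most 1 UMI in total over Hhip, Aspn and Upk3b, and at most 1 over Pecam1, Cldn5, Ptprc, Etv5 and Rtkn2, which mark myofibroblasts, mesothelium, endothelium, immune cells and alveolar epithelium. This gave 703 members of 70426 lung cells (0.998%). They comprised 186 cells of the Bdnf control, 304 of the Bdnf iPCKO, 115 of the Hgf control and 98 of the Hgf iPCKO library, and values below keep that order unless the libraries are named.

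Adventitial fibroblasts lie in the connective tissue cuffs around the larger vessels and airways of the lung. They lay down collagen-rich matrix, secrete chemokines and complement components, and are known from other work as a Pi16-positive population found in the adventitia of many organs. Alveolar matrix fibroblasts, by contrast, sit in the gas-exchange wall and carry Npnt, Itga8 and Tcf21.

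The lungs came from pups at postnatal day 21. Controls carried loxP-flanked alleles and are named in the study as Bdnf lox/lox or Hgf lox/lox mice, with no statement on CreERT2. The pericyte knockouts (iPCKO) carried the same alleles with the Pdgfrb(BAC)-CreERT2 transgene. All groups received 50 µg tamoxifen on each of days P1 to P3. The transgene is active in mural cells and recombines to a limited extent in fibroblasts, so the iPCKO groups model loss of a growth factor mainly from pericytes. Each library pooled 2 mice of 1 genotype, with 40000 cells prepared, after magnetic depletion of CD45+ and Ter119+ cells, and was run on the BD Rhapsody whole-transcriptome system. There was 1 library per group, so no difference between genotypes has a replicate check, no p-value is given, and genotype and library cannot be told apart. Mutants were compared with littermates according to the study's text. The intervals below are 95% intervals and cover counting error only.

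Member libraries differed in depth. The median member held 8430.5, 4624, 5209 and 3435 UMIs, against 7191, 5085, 3988 and 2860 over all lung cells, and the members' UMIs summed to 1702998, 1634125, 680131 and 356087. Mitochondrial genes took a median of 5.47, 5.35, 6.14 and 4.73% of a member's UMIs, below the 9.58, 9.73, 9.44 and 8.88% over all lung cells. Between 243 and 432 barcodes of lung cells were shared by pairs of libraries, none of them of a member. Levels are given as CPM, the UMIs of a gene summed over a library's members and scaled to 1000000 member UMIs.

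Members made up 0.620 to 1.28% of the lung cells of a library. Their share of lung cells was 1.11% (95% Clopper-Pearson interval 0.957 to 1.28) in the Bdnf control and 1.28% (1.14 to 1.43) in the Bdnf iPCKO, and the intervals overlapped. It was 0.816% (0.674 to 0.979) in the Hgf control and 0.620% (0.503 to 0.755) in the Hgf iPCKO, again with overlapping intervals. The order of the Bdnf pair depended on the limits of the rule. With every cell thinned to the UMI minimum of its pair, 1500 or 700, before the rule was applied, the shares were 2.98, 2.62, 1.44 and 0.531%, so that the Bdnf iPCKO share was now the lower of its pair. Without the limit on Hhip, Aspn and Upk3b, 768, 1014, 289 and 163 cells qualified, which is 4.59, 4.27, 2.05 and 1.03%, with the same change of order. In the Hgf pair the iPCKO share was the lower in each of these versions. A lower share in the lung and a lower recovery of these cells in a library cannot be told apart.

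**Figure D1:**
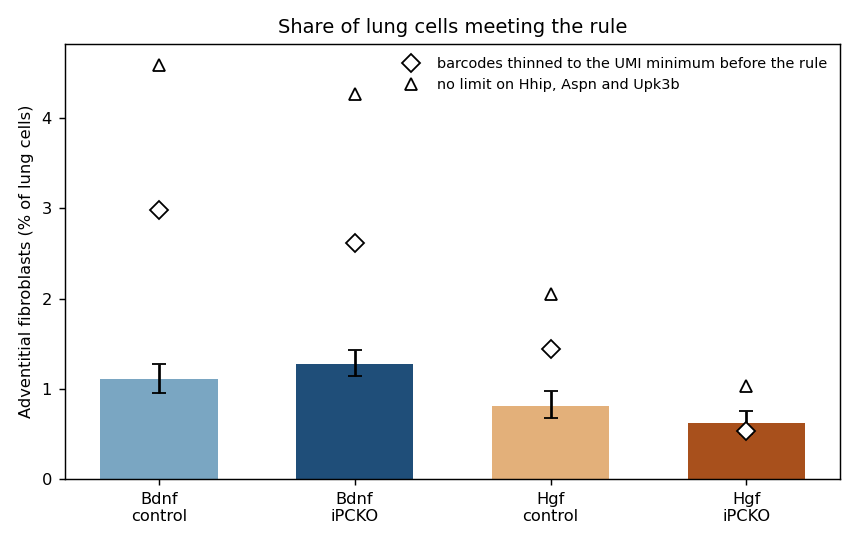
Adventitial fibroblasts as a percentage of lung cells in the 4 libraries. Bars give the share under the rule with 95% Clopper-Pearson intervals, diamonds the share after thinning every cell to the UMI minimum of its pair, and triangles the share without the limit on Hhip, Aspn and Upk3b. The triangles sit highest in every library, at 4.59, 4.27, 2.05 and 1.03%, and the bars lie between 0.620 and 1.28%.

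The limit on Hhip, Aspn and Upk3b removed 728, 945, 209 and 71 of the cells that carried the markers, which is most of them in every library but the Hgf iPCKO. Of 984, 1375, 363 and 182 cells with at least 3 markers, the rule kept 18.9, 22.1, 31.7 and 53.9%. Aspn, a small leucine-rich proteoglycan, was above 1 UMI in 599, 781, 135 and 61 of those cells, with or without Hhip and Upk3b. The cells lost to this limit alone numbered 582, 710, 174 and 65, and they resembled the members in collagen and in dermatopontin. Their Col1a1 stood at 37406, 40928, 39764 and 23190 CPM and their Dpt at 1667, 1596, 1934 and 1154 CPM. They differed in other genes. Their Eln was higher, at 7958, 10906, 7523 and 6698 CPM against 4681, 3841, 6113.5 and 3488 CPM in members. Their Inmt was lower, at 481, 425, 983 and 1926 CPM against 1106, 1138, 1566 and 2783 CPM. Their median depth was 10129, 7164.5, 6900.5 and 3295 UMIs, above the members' depth in 3 of the 4 libraries. The members are therefore a subset of the cells carrying these markers, leaning to cells with fewer UMIs in those 3 libraries, and the rule took a larger share of marker-bearing cells from the shallow Hgf iPCKO library than from the others.

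The 6 markers chose the members, so their levels are a description. Dcn, the collagen-binding proteoglycan decorin, stood at 7014, 5732, 8556 and 9795 CPM in members and at 369, 292, 214 and 56.8 CPM in all other lung cells. Mfap5, a microfibril-associated glycoprotein (chromosome 6, 122470878 to 122508875 of GRCm39, plus strand), stood at 1036, 825.5, 1848 and 985.7 CPM, and Scara5, a ferritin receptor, at 640, 535, 557 and 826 CPM. Pi16, a secreted peptidase inhibitor (chromosome 17, 29536654 to 29549567, plus strand), was the least even of them, with 598, 367, 931 and 143 CPM. A Pi16 UMI was present in 78.5, 63.8, 64.4 and 31.6% of members, so most Hgf iPCKO members entered through Mfap5 or Scara5. The share expected after thinning each cell to the UMI minimum of its pair was 44.2, 36.4, 31.3 and 8.85%, and such shares are exact expectations over all draws of UMIs. They differ in depth between pairs, so that they can be set side by side within a pair only.

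Members with exactly 3 markers numbered 22, 39, 13 and 23, and those with all 6 numbered 119, 99, 56 and 19. The 3-marker members had less Col1a1 in each library, at 4022, 6230, 8577 and 10895 CPM against 46864, 45591, 35975 and 41377 CPM. Eln ran the other way in 3 of the 4 libraries, at 3264, 3933, 8193 and 5530 CPM against 4560, 3323, 5086 and 3487 CPM. Sftpc, the surfactant gene of alveolar type 2 cells, was higher in the 3-marker members of the Bdnf control only, at 9770, 533, 384 and 607 CPM against 214, 1438, 884 and 2088 CPM. One airway cell, described with the Bdnf pair, held 54224 of the 171545 UMIs of that Bdnf control set. Cells just outside, with 2 markers, numbered 44, 44, 46 and 24 and had 106, 255, 138 and 712 CPM of Dcn, against 548, 2164, 2663 and 7433 CPM in 3-marker members, Dcn being among the genes counted.

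The label was checked against collagen and against markers of other cells. The summed level of the fibrillar collagen genes was 97669, 72034, 76326 and 63824 CPM in members, 6638, 6532, 2904 and 642 CPM in other lung cells and 4069, 3497, 1614 and 486 CPM in barcodes without a cell. A member held a median of 720.5, 199.5, 290 and 156.5 UMIs of Col1a1, Col1a2 and Col3a1 together. Epithelial RNA exceeded collagen RNA in 5, 16, 3 and 2 members (2.69, 5.26, 2.61 and 2.04%), which held 5.10, 13.0, 1.14 and 2.52% of the members' UMIs. Summed alveolar type 2 markers stood at 2069, 3426, 1551 and 2143 CPM in members against 54078, 44291, 62659 and 30483 CPM in other cells, and airway markers at 1669, 5174, 444 and 960 CPM against 3730, 7963, 6423 and 11930. Immune markers summed to 411, 414, 320 and 217 CPM against 10283, 6704, 16722 and 5064 CPM, with Laptm5, Tyrobp and Coro1a at 0 in all 4 member sums. The pericyte list summed to 378.5, 329.8, 497 and 255.6 CPM, with Higd1b at 0 in every library and Abcc9, a potassium channel subunit, giving 288, 239, 426 and 219 CPM of that sum. Mesothelial markers summed to 160.9, 64.9, 29.4 and 14.04 CPM, with Lrrn4 and Bnc1 at 0 throughout. Scrublet, a doublet caller, marked 5, 14, 1 and 1 members, which were left in. In summed RNA the members were thus rich in fibrillar collagen, and a small set in each library carried more epithelial than collagen RNA.

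Adventitial and alveolar fibroblasts were next set side by side within each library. Alveolar matrix fibroblasts numbered 341, 233, 141 and 95 cells. They were chosen by Npnt, Tcf21, Ces1d, Inmt, Col13a1 and Slc7a10, with at most 1 UMI over Pi16, Mfap5 and Scara5 and the members' exclusions. Of 2014 genes with enough UMIs in every library, 146 were at least 2-fold higher in the adventitial members in all 4 libraries (7.25%) and 84 at least 2-fold lower (4.17%), and the median gene differed by -0.03 on the log2 scale. Because both populations were cut by marker RNAs, these counts describe the cells and carry no test. Against that background, the list of adventitial identity genes, which leaves out the 6 gate genes, had 12 of 19 measured members higher and 2 lower, Limch1 and Cxcl14. The alveolar fibroblasts also carried more epithelial RNA than the members. Of 6 measured alveolar type 2 markers, 4 were past 2-fold lower in members in all 4 libraries, with a list median of -2.11. Alveolar type 1 markers had 2 of 2 lower, with a median of -2.15, and airway markers 1 of 2. The part of this RNA in the differences from alveolar fibroblasts, given here and below, was not tested. The UMI minimum could be met by the members alone: Scara3 was kept with 0 CPM in alveolar fibroblasts of the Bdnf iPCKO library. Members also held more UMIs in every library, at 1702998, 1634125, 680131 and 356087 against 1584584, 948508, 288598 and 269725. How far this favoured genes higher in members, in the counts here and in the list counts below, was not tested.

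Among the 25 genes that differed most were these for membrane proteins, picked out by hand. Scara3, a scavenger receptor class A protein that handles oxidative damage (chromosome 14, 66156569 to 66191401, minus strand), stood at 234, 187, 297 and 337 CPM in members and at 0.631, 0, 0 and 0 CPM in alveolar fibroblasts. Entpd2, an ectonucleotidase that breaks down extracellular ATP, stood at 427.5, 255, 413 and 278 CPM against 1.26, 4.22, 3.46 and 0 CPM. The receptor tyrosine kinase gene Axl, which binds Gas6, had 319, 291, 437 and 458 CPM, and Flrt2, a cell-adhesion and guidance protein, was also among the 25.

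Ntrk2 encodes TrkB, the high-affinity receptor of BDNF, the factor deleted in 1 of the pairs. It lies on chromosome 13, 58954176 to 59281784, plus strand. It stood at 254, 247, 134 and 211 CPM in members and at 1.89, 4.22, 0 and 0 CPM in alveolar fibroblasts. Endothelial cells had 25.5, 29.3, 32.7 and 8.85 CPM and alveolar type 2 cells 3.19, 5.39, 1.53 and 0.382 CPM, so members were highest in each library among these. A UMI of Ntrk2 was seen in 59.7, 46.4, 45.2 and 45.9% of members, in 24.1, 25.4, 9.09 and 12.7% after thinning, and in 6.17, 5.84, 4.02 and 1.36% of other lung cells. Between Bdnf control and Bdnf iPCKO members its level was close, with a log2 ratio of -0.04 (-0.24 to 0.16). In the Hgf pair the members' ratio was 0.66 (0.19 to 1.11), while other lung cells had -1.48 and the marker-bearing cells removed by the limit on Hhip, Aspn and Upk3b had 0.04. The counts do not separate full-length TrkB from its truncated form.

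Secreted signals formed another group. Ccl11, the eosinophil chemokine eotaxin, stood at 205.5, 154, 269 and 298 CPM in members and at 0, 6.33, 0 and 0 CPM in alveolar fibroblasts. Cxcl12, the ligand of Cxcr4, had 871, 488, 494 and 205 CPM, and Penk, the proenkephalin precursor, had 181, 185, 234 and 202 CPM. Igf2 stood at 93.7, 226, 75.7 and 157 CPM and Igfbp4, which binds insulin-like growth factors, at 2836, 1944, 3266 and 1688 CPM against 46.1, 92.8, 41.6 and 14.8 CPM. Of the measured genes, 4 of 7 cytokine and chemokine genes, 3 of 7 of the insulin-like growth factor list and 3 of 4 Wnt-pathway genes were higher in members in every library, beside 7.25% of all genes, and 1 cytokine gene, Cxcl14, was lower. Sfrp1, Wnt5a and Dkk3 were the Wnt genes, with differences of 3.25 to 4.41, 1.11 to 2.59 and 1.06 to 3.17 on the log2 scale.

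Of the matrix lists, fibrillar collagens and collagen processing differed most often, beside 7.25% of all genes higher. All 5 measured fibrillar collagen genes were past 2-fold in every library, with Col1a1 higher by 3.47 to 5.55 and Col3a1 by 2.93 to 5.12 on the log2 scale. Of 18 genes for collagen processing, 11 were higher and none lower, among them Mmp3, a matrix metalloproteinase, at 520, 298, 800 and 441 CPM, and the inhibitor Timp1. The elastic fibre list had 4 of 12 higher, with Fbln2, which links elastin to basement membrane, at 211, 250, 375 and 320 CPM. Elastin itself, Eln, differed by only -0.53 to 0.21. Proteoglycans had 2 of 7 higher, Podn and Gpc3. Other collagens had 1 of 8 higher, near the share of all genes, namely Col14a1, which coats collagen fibrils, at 1878, 1161, 2108 and 800 CPM. Basement membrane collagen Col4a1 differed by -0.18 to 0.92.

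Complement genes were also abundant in the members. Of 8 measured, 6 were past 2-fold higher in every library. C4b stood at 1045, 617, 745 and 313 CPM, and C3, the central component, was higher than in alveolar fibroblasts by 2.54 to 3.71 on the log2 scale. Serping1, the C1 inhibitor, was higher by 1.19 to 2.39. Cd55, which protects cells from complement, ran the other way, at -3.95 to -0.17.

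Of the alveolar fibroblast list, 6 of 8 genes were past 2-fold lower in members. Npnt, Tcf21, Ces1d, Inmt, Col13a1 and Slc7a10 chose the alveolar fibroblasts, so lower levels of these genes in members follow from that choice. Npnt, an integrin ligand of the alveolar wall, was lower by -4.87 to -3.69, and Itga8 by -4.48 to -3.20. Inmt, a methyltransferase, remained at 1106, 1138, 1566 and 2783 CPM in members against 4420, 3065, 7679 and 4360 CPM, and did not pass 2-fold in the Hgf iPCKO library. Dpp4, often used to mark Pi16-positive fibroblasts elsewhere, was rare in these members, at 8.22, 12.2, 11.8 and 2.81 CPM, while alveolar type 2 cells had 216, 167, 207 and 116 CPM. At least 2 of 7 cycling genes were detected in 3 of 186, 1 of 304, 0 of 115 and 0 of 98 members. The counts of 0 allow shares of up to 3.16 and 3.69% of members with such UMIs, which does not bound the share of cycling cells.

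**Figure D2:**
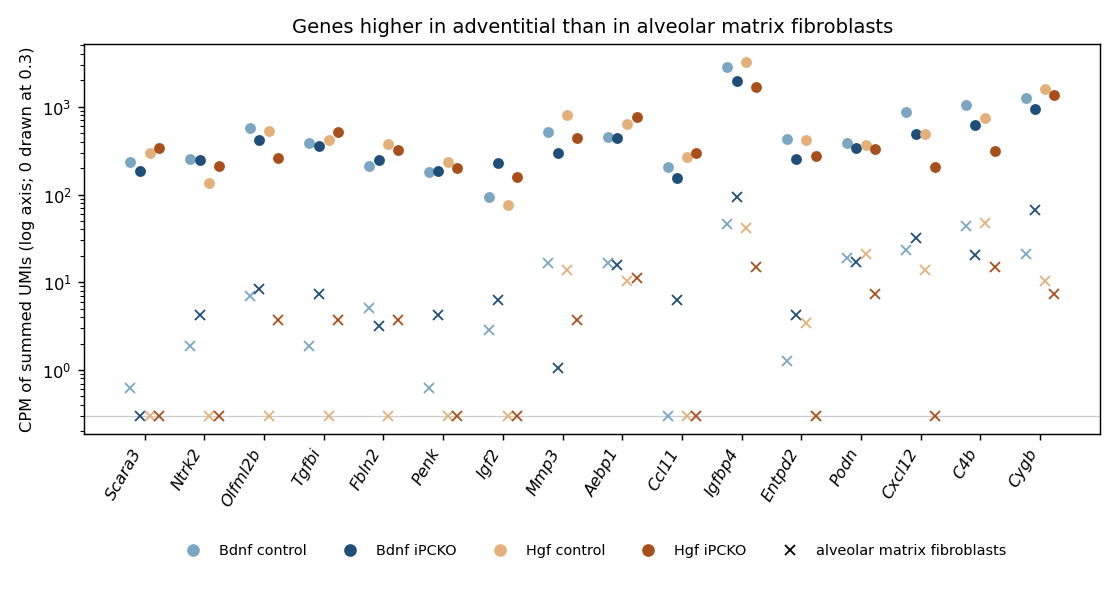
Level of 16 genes in adventitial members (dots) and alveolar matrix fibroblasts (crosses) of the 4 libraries, in CPM on a log axis, with levels of 0 drawn at 0.3. The dots lie above the crosses for every gene and library shown, from Ntrk2 at 134 to 254 CPM against at most 4.22 CPM, to Igfbp4 at 1688 to 3266 CPM against at most 92.8 CPM. The 16 genes were taken from the 25 with the largest differences over the 4 libraries, so this order follows from the choice.

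The targeted genes gave few UMIs in the members. Bdnf had 4, 6, 0 and 0 UMIs over all members, or 2.35, 3.67, 0 and 0 CPM, against 30.5, 28.2, 28.8 and 24.1 CPM in all other lung cells. Hgf had 29, 29, 14 and 3 UMIs, or 17.0, 17.8, 20.6 and 8.43 CPM. In the Hgf pair the members' intervals, 11.3 to 34.5 and 1.74 to 24.6 CPM, overlapped. Pericytes of the same libraries, 55, 70, 67 and 172 cells, held 48, 23, 21 and 7 UMIs of Hgf, which is 203.5, 112, 174.5 and 25.9 CPM. Their Bdnf gave 2, 0, 0 and 3 UMIs, too few to read the deletion from. Met, the receptor of HGF, had 28, 22, 2 and 9 UMIs in the members. In the Bdnf pair the log2 ratio was 0.06 for Hgf (-0.73 to 0.85) and -0.28 for Met (-1.16 to 0.57). In the Hgf pair neither gene reached 50 UMIs.

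Pdgfrb, the platelet-derived growth factor receptor whose sequence drives the Cre transgene, was higher in both iPCKO libraries. It stood at 54.6, 131.6, 104.4 and 261.2 CPM in members. The log2 ratio of iPCKO over control was 1.26 (0.91 to 1.64) in the Bdnf pair and 1.32 (0.86 to 1.79) in the Hgf pair. Other lung cells showed 12.3, 38.0, 12.2 and 65.1 CPM and pericytes 610, 2101, 1304 and 4106 CPM. The iPCKO mice carry a bacterial artificial chromosome built on Pdgfrb, and its part in these counts was not tested.

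The comparison of Hgf control with Hgf iPCKO asks how the adventitial fibroblasts looked when Hgf was deleted in pericytes. A gene was called where the members of the libraries differed at least 2-fold with 50 UMIs or more in both together. Of 3352 genes, 279 were higher (8.32%) and 282 lower (8.41%) in the iPCKO library, and the median gene differed by 0.05 on the log2 scale. Lower genes included structural and adventitial genes, and higher genes included metallothioneins, glucocorticoid-responsive genes and clock genes.

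Col15a1, a collagen of vessel-associated basement membranes and a marker of adventitial fibroblasts (chromosome 4, 47207582 to 47313179, plus strand), differed most. It had 765 CPM (700 to 833) in the Hgf control and 22.5 CPM (9.70 to 44.3) in the Hgf iPCKO, from 520 and 8 UMIs, so that the log2 ratio was -5.00 (-6.31 to -4.10). Members with a UMI of it made up 70.4% in the control and 5.10% in the iPCKO, and 32.8 and 1.27% after thinning, against 5.20 and 0.725% of other lung cells. It was not confined to the members: other lung cells had 39.9 and 3.08 CPM, the marker-bearing cells removed by the limit on Hhip, Aspn and Upk3b had 825 and 100.5 CPM, and endothelial cells 55.1 and 3.48 CPM. In the Bdnf libraries 80.7 and 41.1% of members had a Col15a1 UMI, 51.0 and 26.03% after thinning.

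Further genes of matrix and secretion were lower in the Hgf iPCKO members. Clec11a, a secreted growth factor of bone marrow stroma, stood at 162 and 14.04 CPM, or -3.39 on the log2 scale (-5.18 to -2.26). Spon2, an extracellular matrix protein also known as mindin, stood at 373.5 and 36.5 CPM, -3.30 (-4.28 to -2.55), and 53.8% of the 13 UMIs left in the iPCKO library came from 1 cell. Lum, the collagen-binding proteoglycan lumican, stood at 345.5 and 42.1 CPM, -2.99 (-3.90 to -2.28). Serpinh1, the chaperone of procollagen, stood at 1442 and 213 CPM, -2.75 (-3.11 to -2.42). These genes were also lower in the remaining lung cells of that library, by -2.14 for Clec11a, -3.73 for Spon2, -3.05 for Lum and -1.61 for Serpinh1. The marker-bearing cells removed by the limit, 174 in the control and 65 in the iPCKO, are counted there, and they held 330 of 599 Clec11a, 443 of 962 Spon2, 413 of 710 Lum and 1919 of 15539 Serpinh1 UMIs of the control.

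A second set was lower in members and close to level or higher over the remaining lung cells as a whole. Crip1, a LIM-domain protein, stood at 348.5 and 22.5 CPM in members, -3.87 (-5.18 to -2.95), with a ratio of 0.04 in other cells. Akap12, a scaffold of protein kinase A, stood at 2303 and 430 CPM, -2.42 (-2.67 to -2.18), with -0.09 in other cells. Ackr3, a scavenging receptor of Cxcl12, stood at 151 and 22.5 CPM, -2.67 (-4.00 to -1.72), with 0.36 in other cells. Lgals1, galectin-1, lay between these sets at 634 and 107 CPM, -2.55 (-3.09 to -2.09), with -1.31 in other cells. The marker-bearing cells removed by the limit on Hhip, Aspn and Upk3b resembled the members here, with -3.15 for Crip1, -2.34 for Akap12, -1.63 for Ackr3 and -2.31 for Lgals1. Alveolar fibroblasts had 2.82 for Crip1, -1.67 for Akap12 and -2.98 for Lgals1, and 0 and 1 UMIs of Ackr3. With 1 library per genotype the difference between members and other cells was not tested.

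The named higher genes included the metallothioneins Mt1 and Mt2. Mt2, a metal-binding protein, stood at 279 and 4502 CPM, a log2 ratio of 4.01 (3.79 to 4.23), and Mt1 at 744 and 4530 CPM, 2.61 (2.46 to 2.75). Fabp4, a fatty acid carrier, had 16.2 and 264 CPM, 3.97 (3.12 to 5.08), from 11 and 94 UMIs. Nampt, the rate-limiting enzyme of NAD salvage, stood at 32.4 and 418 CPM, 3.67 (3.04 to 4.41). Other lung cells had ratios of 2.44 for Mt2, 2.09 for Mt1, -0.03 for Fabp4 and 0.77 for Nampt. The removed marker-bearing cells had 2.52, 2.12, 3.09 and 3.52, and alveolar fibroblasts had 2.88 for Mt2, 3.39 for Mt1 and 1.82 for Nampt. Cdo1, cysteine dioxygenase, stood at 66.2 and 309 CPM in members, 2.21 (1.71 to 2.76), and the hypoxia-responsive mitophagy gene Bnip3 at 83.8 and 373.5 CPM, 2.15 (1.70 to 2.63). Cdo1 had 1.05 in other lung cells and -0.62 in alveolar fibroblasts, and Bnip3 had 1.31 and 1.77.

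Genes known to respond to glucocorticoids were nearly all higher in the Hgf iPCKO members. Of 13 measured, 12 were past 2-fold higher and none lower, with a median of 2.11 on the log2 scale, beside 8.32% of all genes. Tsc22d3, the glucocorticoid-induced leucine zipper, stood at 101.5 and 477 CPM, 2.23 (1.82 to 2.66), Zbtb16 at 42.6 and 230 CPM and Klf9 at 584 and 1463 CPM. Fkbp5, a co-chaperone of the glucocorticoid receptor, stood at 33.8 and 152 CPM with a ratio of 2.15, and Errfi1 was the gene that did not pass 2-fold, at 0.75. Fmo2, a flavin monooxygenase in the same list, stood at 1273 and 5493 CPM, 2.11 (1.99 to 2.23), and 52.4 and 93.7% of members had a UMI after thinning. The other lung cells of this library showed 10 of 13 higher with a median of 1.66, and the marker-bearing cells left out by the limit showed 12 of 13 with a median of 2.27. Alveolar fibroblasts were less uniform, with 2.88 for Mt2, which is on this list, 2.57 for Fkbp5, 0.73 for Fmo2, 0.63 for Klf9, 0.37 for Zbtb16 and -0.29 for Tsc22d3. Genotype and library cannot be told apart in these differences.

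Clock genes differed in both directions in the Hgf pair. Of 8 measured, 5 were higher and 1 lower in the iPCKO library, beside 8.32 and 8.41% of all genes, with a median of 1.51. Nr1d1, the repressor REV-ERB alpha (chromosome 11, 98658752 to 98666188, minus strand), stood at 86.8 and 497 CPM, 2.51 (2.09 to 2.97), the output regulators Tef at 22.1 and 138 CPM and Hlf at 86.8 and 284 CPM. Cry2 had a ratio of 1.83. Npas2, a positive arm partner, ran the other way at 69.1 and 11.2 CPM, -2.47 (-4.56 to -1.17). Other cells of the library had 5 higher and 1 lower as well, with a median of 1.39.

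Adventitial identity genes were more often lower than higher. Of 29 measured, 11 were past 2-fold lower and 2 higher, with a median of -0.80, beside 8.41% of all genes lower. Apart from Col15a1 and Ackr3, the lower genes included Cd55 at 106 and 11.2 CPM, the guidance cue Sema3c at 179 and 25.3 CPM, the stromal antigen Cd248 at 226 and 53.4 CPM, the hyaluronan synthase Has1 at 181 and 53.4 CPM and the progenitor antigen Cd34 at 1301 and 539 CPM. Pdgfra, the receptor found on most fibroblasts, was higher at 675 and 1542 CPM, 1.19 on the log2 scale. Dpt, Igfbp6 and Ccl11 had ratios of -0.53, 0.20 and 0.15. Of the genes the rule used, Pi16 had a ratio of -2.69 (-3.14 to -2.29) and Fbln1 of -1.43, while Dcn had 0.20 and Scara5 0.57. Over other lung cells the identity list had 12 lower, 2 higher and a median of -0.81. The marker-bearing cells removed by the limit, 174 in the control and 65 in the iPCKO, are counted there. They had 12 lower, 5 higher and a median of -0.81. All 6 genes of the rule were past 2-fold lower in other lung cells, with a median of -1.99. The part of the number of such cells in these ratios was not tested. For Ly6a and Ly6c1, stem-cell antigen family genes, members and other cells differed in sign, at -1.12 and -1.51 in members against 0.53 and 1.16.

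**Figure D3:**
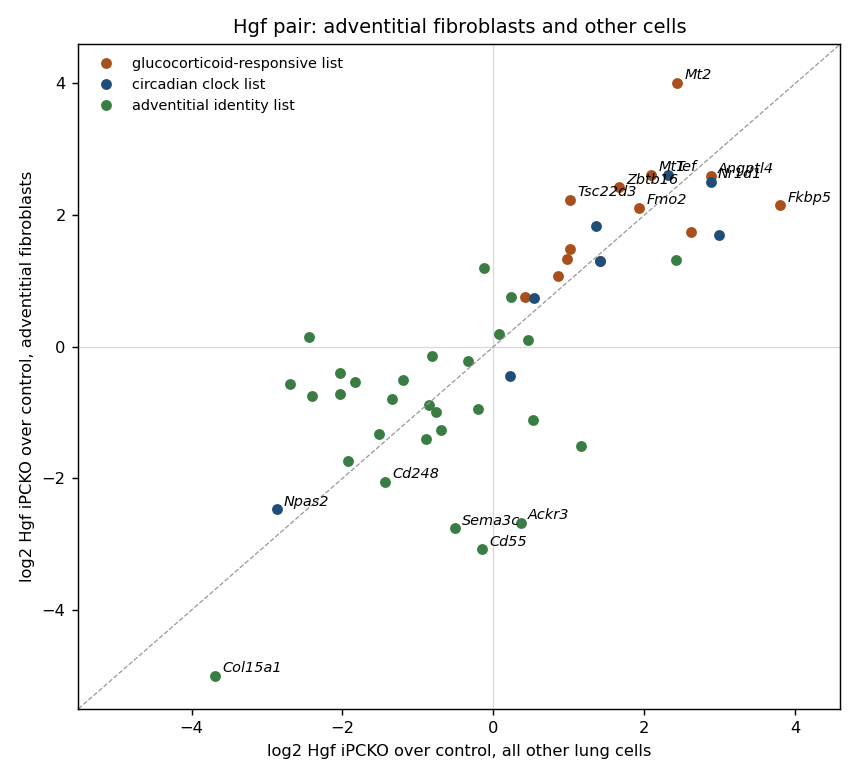
Log2 ratio of Hgf iPCKO over Hgf control for genes of the glucocorticoid, clock and adventitial identity lists, in adventitial members and in all other lung cells. Most glucocorticoid genes lie above 1 in both, with medians of 2.11 and 1.66, and the identity genes lie mostly below 0 in both, with medians of -0.80 and -0.81. Other lung cells include the marker-bearing cells removed by the limit on Hhip, Aspn and Upk3b.

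None of the 5 measured fibrillar collagen genes passed 2-fold between the Hgf members. Col1a1 stood at 31516 and 30922 CPM, a ratio of -0.03, Col1a2 at -0.15 and Col3a1 at 19914 and 10733 CPM, -0.89, and the median of the 5 genes was -0.28. Without the limit on Hhip, Aspn and Upk3b, 2 of 6 were past 2-fold lower, with a median of -0.54. Beside 8.41% of all genes lower, other collagens had 5 of 10 lower and none higher: Col15a1, Col18a1 at -1.56, Col14a1 at -1.40, Col6a3 at -1.25 and Col6a2 at -1.02. This was 3 of 11 without the limit on Hhip, Aspn and Upk3b. The basement membrane genes Col4a1 and Col4a2 had ratios of 0.50 and 0.52. Collagen processing had 4 of 22 lower, beside the same 8.41%, and none higher, led by Serpinh1 and by Pcolce, the enhancer of procollagen C-proteinase, at -1.85. P4ha1, a prolyl hydroxylase subunit, had -1.47, and Timp3, a metalloproteinase inhibitor, stood at 4545 and 1879 CPM.

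Of 15 elastic fibre genes, 1 was higher and 3 lower, beside 8.32 and 8.41% of all genes, so the share of higher genes was near that of all genes. Lox, the enzyme that crosslinks collagen and elastin, stood at 481 and 1938 CPM, 2.01 on the log2 scale, while its relative Loxl1 stood at 653 and 247 CPM, -1.39, and Mfap4 at 2673 and 1165 CPM, -1.20. Emilin1 had -1.87. Eln, elastin, had -0.81. Beside the same shares, proteoglycans had 1 higher, Omd at 1.73, and 3 lower of 11, Lum, Vcan at -1.91 and Prelp at -1.05.

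Growth factor and signalling lists had genes past 2-fold in both directions, beside 8.32% of all genes higher and 8.41% lower. The insulin-like growth factor list had 2 higher and 2 lower of 8, the Wnt list 1 and 1 of 6, and the transforming growth factor list 1 and 3 of 20. The Hedgehog, Fgf and Pdgf list had 2 and 1 of 12, the cytokine list 1 and 2 of 12. For the transforming growth factor and cytokine lists the share of higher genes was near that of all genes. Igf1 stood at 257 and 64.6 CPM, -1.97, and Igfbp5 at 1278 and 365 CPM, -1.80, while Igf2 had 1.04 and Igfbp3 1.53. Wnt11, a non-canonical Wnt ligand, stood at 38.2 and 157 CPM, 2.03, and the receptor Fzd2 had -1.31. Among genes of the transforming growth factor family, the co-receptor Tgfbr3 had 1.08, and Tgfb3 and Fstl1 had -1.39 and -1.18. Fgf2 had -2.05 and the chemokine Cxcl12 -1.26, whereas the oncostatin receptor Osmr had 1.43. Complement had 2 of 11 lower, Cd55 and C4b, beside 8.41% of all genes, and none higher. Other lung cells and the removed marker-bearing cells had 6 complement genes lower each, with medians of -1.04 and -1.11. Of all 3352 genes, 157 and 262 were lower there. Retinaldehyde dehydrogenases Aldh1a1 and Aldh1a3 had 1.32 and 1.21, the 2 higher of 7 measured genes of the retinoic acid list, with 1 lower.

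The comparison of Bdnf control with Bdnf iPCKO asks the same question for Bdnf. Of 7749 genes, 216 were at least 2-fold higher in the iPCKO members (2.79%) and 67 lower (0.865%), with a median gene at 0.06 on the log2 scale. The lowest ratios belonged to airway genes from a single cell. One Bdnf control member of 54224 UMIs held 1040 of 1043 Bpifa1 UMIs, 452 of 453 Ltf UMIs, 148 of 161 Cyp2a5 UMIs and 93 of 93 Sult1d1 UMIs of the library's members, and had no Col1a1. These 4 genes, and Gabrp with 46 of 49 control UMIs in the same cell, do not describe fibroblasts. At the other end, Retnla, a secreted protein of airway and immune cells, had the highest ratio, with 0 UMIs in the control and 535 in the iPCKO members, 71.2% of them in 1 cell, and it was named after its value was seen.

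Among fibroblast genes, secreted and matrix proteins led the lower side. Clec11a stood at 148 CPM (130 to 167) and 42.2 CPM (32.9 to 53.4), a log2 ratio of -1.80 (-2.22 to -1.42), and Spon2 at 165 and 54.5 CPM, -1.59 (-1.96 to -1.25). Angpt4, a ligand of the Tie2 receptor, stood at 156 and 57.5 CPM, -1.44 (-1.80 to -1.10), and Timp1 at 102 and 38.6 CPM, -1.39 (-1.84 to -0.97). Cfb, complement factor B, stood at 96.9 and 31.8 CPM, -1.60 (-2.09 to -1.15). In other lung cells Clec11a, Spon2 and Angpt4 had -1.01, -1.42 and -1.40, while Timp1 and Cfb had -0.36 and -0.70. The marker-bearing cells removed by the limit are counted there, and they held 1013 of 1557 Clec11a, 902 of 2544 Spon2 and 871 of 1139 Angpt4 UMIs of the control. In those removed cells Timp1 had -0.67 and Cfb -1.65.

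Of 15 imprinted growth genes, 3 were past 2-fold higher and none lower, beside 2.79% of all genes, and the median of the list was -0.07. H19, an imprinted long non-coding RNA, stood at 3.52 and 47.1 CPM, 3.64 (2.55 to 5.23), Dlk1, a Notch-family inhibitor, at 26.4 and 113 CPM, 2.08 (1.61 to 2.60), and Igf2 at 94.0 and 226 CPM, 1.26 (0.99 to 1.54). Other lung cells had ratios of 2.50 for H19, 1.95 for Dlk1 and 1.55 for Igf2. The removed marker-bearing cells held 260 of 399 control and 891 of 1670 iPCKO UMIs of Dlk1 among them, and alveolar fibroblasts held none. All 3 genes are strongly expressed before birth and are silenced in most tissues afterwards.

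Some clock and early-response genes were higher, beside 2.79% of all genes. Of 14 clock genes, 5 were past 2-fold higher, Per3 at 1.81, Dbp at 1.61, Nr1d2 at 1.35, Hlf at 1.23 (0.95 to 1.52) and Nr1d1 at 1.02, with a median of 0.84 against 0.51 in other cells. Of 25 immediate-early genes, 4 were higher, Myc at 28.2 and 89.3 CPM, 1.65 (1.18 to 2.17), Nr4a2 at 1.25, Btg2 at 1.21 and Nr4a1 at 682 and 1415 CPM, 1.05, with a list median of 0.51. Other lung cells had 2 of them higher and a median of 0.53. The marker-bearing cells left out by the limit on Hhip, Aspn and Upk3b had 0 of these early genes past 2-fold and a median of 0.07. Ccn2, an injury-responsive matricellular gene, stood at 158 and 334 CPM, 1.08, and Pik3ip1 had 1.07. Several of these calls rested on the limit on Hhip, Aspn and Upk3b: without it 0 of 26 early genes and 3 of 15 clock genes were past 2-fold, and Myc had 0.64, Hlf 0.86, Ccn2 0.96, Pik3ip1 0.34 and Igf2 0.94.

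Most adventitial and structural genes were within 2-fold in the Bdnf pair. The identity list had 1 higher and 1 lower of 31, Pdgfrb and Ly6a at -1.15 (-1.27 to -1.03), with a median of -0.41. Over all genes 2.79% were higher and 0.865% lower, so the share of higher identity genes was near that of all genes. Fibrillar collagens had 1 of 6 lower, Col5a3 at -1.08, beside 0.865% of all genes, with Col3a1 at -0.66. Without the limit on Hhip, Aspn and Upk3b, 0 of 7 fibrillar collagens were lower and 1 was higher, with a median of 0.03. Other collagens had 0 of 14 and proteoglycans 0 of 12 past 2-fold. Collagen processing had 3 of 23 lower, Timp1, Pcolce at -1.04 and Serpinh1 at -1.02, beside 0.865% of all genes. Complement had 2 of 13 lower, Cfb and C7 at -1.50, and 1 higher, C6 at 1.08, beside 2.79% of all genes, a call lost without the limit on Hhip, Aspn and Upk3b, with at least 4 of 6 markers and with Scrublet doublets left out. C3 stood at 1222 and 627 CPM, -0.96. The glucocorticoid list had 3 of 14 higher, beside 2.79% of all genes, Errfi1 at 1.32, Cdkn1a at 1.10 and Fmo2 at 2131 and 4525 CPM, 1.09 (1.03 to 1.14), with a median of 0.36. Without the limit on Hhip, Aspn and Upk3b, 1 of 15 glucocorticoid genes was higher, Fmo2 had 0.59, Timp1 -0.84, and 0 of 23 collagen processing genes were past 2-fold. Aldh1a1 and Aldh1a3, enzymes of retinoic acid synthesis, had 1.17 and 1.05. Aldh1a1 was no longer past 2-fold with Scrublet doublets, or with members richer in epithelial than in collagen RNA, left out. Without the limit on Hhip, Aspn and Upk3b, 0 of 9 genes of the retinoic acid list were higher.

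**Figure D4:**
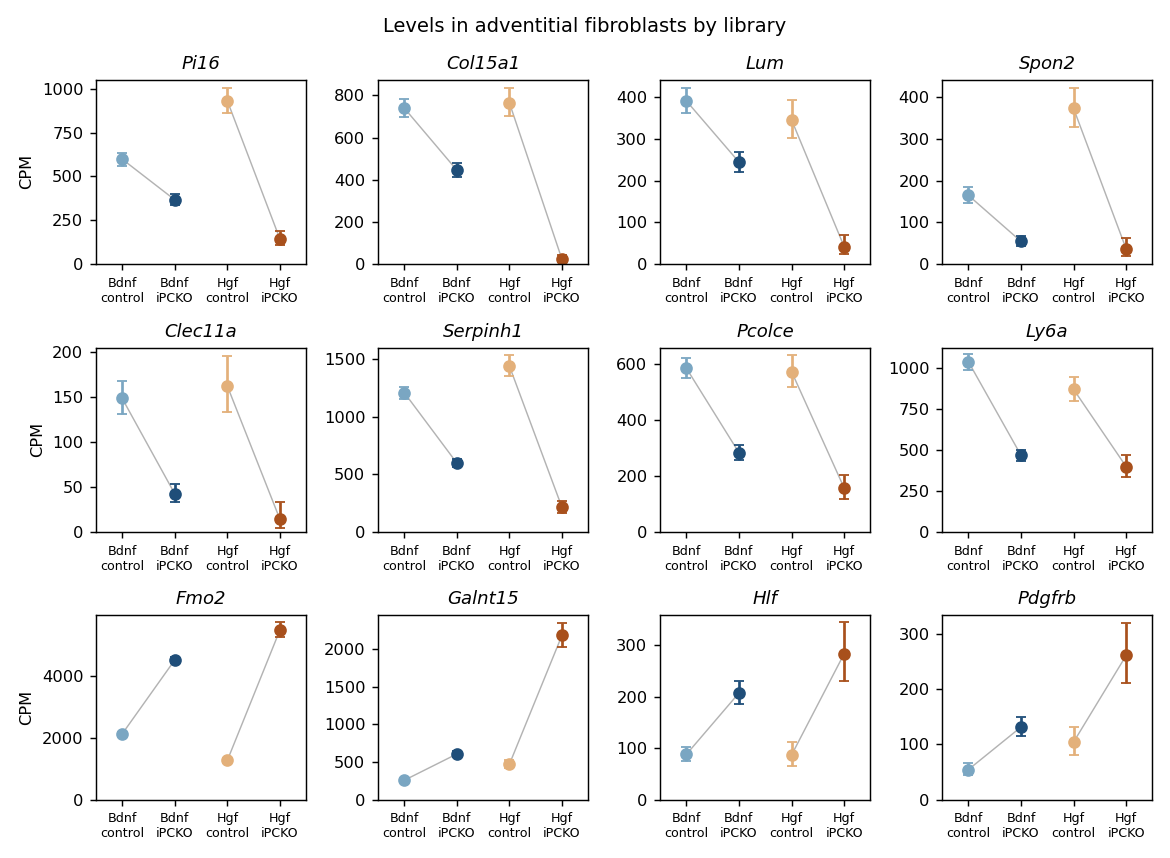
Level of 12 genes in adventitial members of the 4 libraries, in CPM with 95% Poisson intervals. Col15a1 is lowest in the Hgf iPCKO library at 22.5 CPM, Spon2 and Clec11a are lower in each iPCKO library than in its control, and Fmo2, Galnt15, Hlf and Pdgfrb are higher in each.

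Both pairs could be read for 3347 genes, and they share no control library. The pairs did share technical differences. The iPCKO members were the shallower side, with medians of 8430.5 and 4624 UMIs in the Bdnf and 5209 and 3435 in the Hgf pair. The rule kept 18.9 and 22.1%, then 31.7 and 53.9%, of marker-bearing cells. Summed alveolar type 2 markers stood at 2069 and 3426 CPM, then 1551 and 2143 CPM, and airway markers at 1669 and 5174 CPM, then 444 and 960 CPM. Their part in the shared genes was not tested. Past 2-fold, 21 genes were higher in both iPCKO libraries, 9 were lower in both and 2 ran in opposite directions. The 21 were 43.8% of the 48 genes higher in the Bdnf pair, beside 8.32% of all genes higher in the Hgf pair. They were 7.61% of the 276 higher in the Hgf pair, beside 48 of all 3347 genes higher in the Bdnf pair. The 9 were 64.3% of the 14 lower in the Bdnf pair, beside 8.41% of all genes lower in the Hgf pair. These 9 were 3.19% of the 282 lower in the Hgf pair, beside 14 of all 3347 genes lower in the Bdnf pair. They were named after their values were seen: Clec11a, Spon2, Pcolce, Serpinh1, Ly6a, Dclk1, Lgals3bp, Ifi27 and AW112010. Of these, Pcolce and Serpinh1 are on the collagen processing list and Ly6a is on the adventitial identity list. Without the limit on Hhip, Aspn and Upk3b, 10 genes were higher in both pairs, 14 lower in both and 7 opposite. Of the genes above, Fabp4 and Pdgfrb of the 21 and Clec11a, Spon2, Ly6a and AW112010 of the 9 were still among them.

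Log2 ratios of the Bdnf and the Hgf pair differed in size for some of the 9 genes lower in both. Serpinh1 had -1.02 and -2.75, Pcolce -1.04 and -1.85 and Ly6a -1.15 and -1.12. Pcolce stood at 584 and 283 CPM in the Bdnf pair and at 572 and 157 CPM in the Hgf pair. Serpinh1 stood at 1211 and 599 CPM, then at 1442 and 213 CPM. Ly6a, the antigen Sca-1, stood at 1039 and 468 CPM, then at 870 and 399 CPM, while endothelial cells of the same libraries had 1717, 1317, 2257 and 2462 CPM of it. In the Bdnf pair Pcolce and Serpinh1 lay close to the 2-fold line, and neither was past it with Scrublet doublets or the epithelium-rich members left out, or without the limit on Hhip, Aspn and Upk3b.

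Of the 21 genes higher in both, Fmo2 and Cdkn1a are on the glucocorticoid list, Hlf and Nr1d1 on the clock list, and Aldh1a1 and Aldh1a3 on the retinoic acid list. With Scrublet doublets or the epithelium-rich members left out, Aldh1a1 was no longer higher in both. Galnt15, a glycosyltransferase (chromosome 14, 31750756 to 31784154, plus strand), stood at 258 and 608 CPM, 1.23 (1.07 to 1.40), and at 472 and 2185 CPM, 2.21 (2.02 to 2.40), with 0.77 and 2.14 in other cells. Without the limit on Hhip, Aspn and Upk3b its Bdnf ratio was 0.82. Ddit4, an inhibitor of mTOR signalling, stood at 37.0 and 96.7 CPM and at 36.8 and 306 CPM. Scgb1a1, Sftpb and Hopx, genes of airway and alveolar epithelium, were also among the 21, Hopx with log2 ratios of 1.65 and 1.44. Scgb1a1 stood at 232.5, 2343, 423 and 938 CPM in members and at 2067, 5160, 4160 and 10106 CPM in other cells. Its level in members and in other cells was thus higher in each iPCKO library than in its control.

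**Figure D5:**
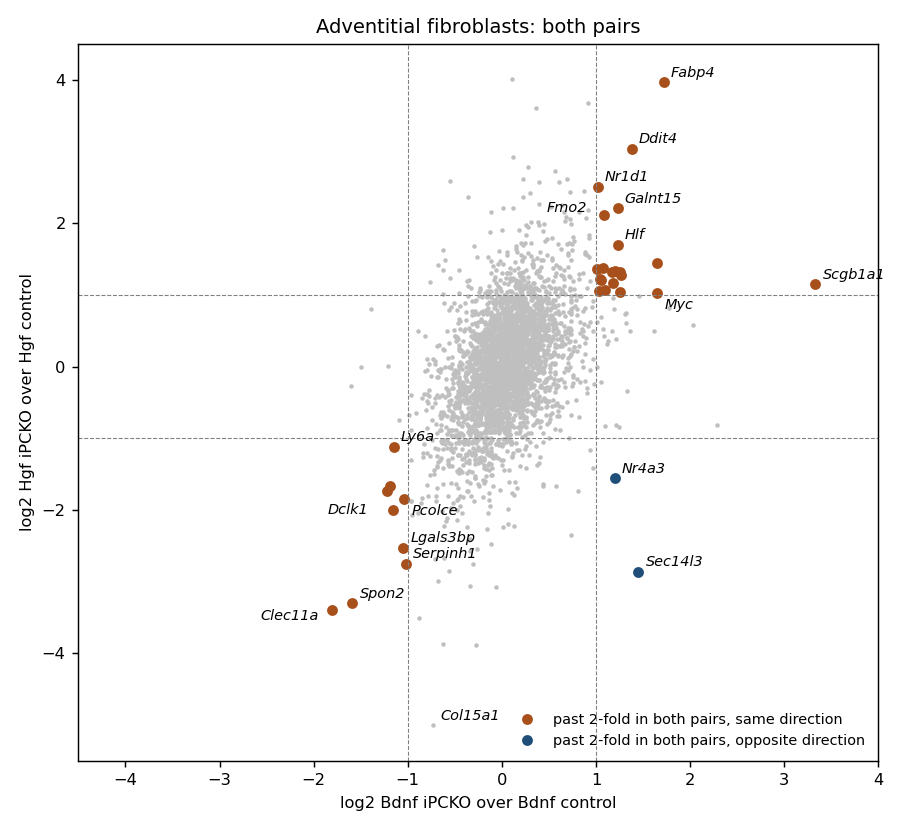
Log2 ratio of iPCKO over control in adventitial members for 3347 genes, the Bdnf pair on the horizontal and the Hgf pair on the vertical axis, with lines at 2-fold. Points spread further along the vertical axis, 21 genes lie past 2-fold higher in both pairs and 9 past 2-fold lower in both, Spon2 and Clec11a among them.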

How the data were processed

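The authors mapped BD Rhapsody reads with STARsolo to GRCm39. Per the submitters' processing notes and the methods this was STAR 2.7.10a, and the sources give Gencode release vM33 or M26. The deposited values are expected counts of UMIs per gene and barcode, with reads that fit several genes shared out by expectation maximization and no cell filter applied. Near-identical genes are therefore partly estimated. The values were rounded to whole UMIs here.

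Members and gene lists were chosen with earlier results of these data known. UMIs were summed over the members of a library and given as CPM with exact Poisson intervals, shares with Clopper-Pearson intervals, and ratios with conditional exact intervals and an offset of 0.5 UMI. A gene was called at 2-fold where the libraries of a pair held 50 UMIs or more between them. Named genes were members of 35 lists and, for each pair, the 10 highest and 10 lowest ratios among genes with at least 100 UMIs and at least 2 times the level of barcodes holding 10 to 100 UMIs. The 25 genes highest against alveolar fibroblasts by their lowest ratio over libraries were added. Mitochondrial, ribosomal, Gm- and Rik-named genes and repeated symbols were left out. Doublets were scored with Scrublet at an expected rate of 0.1 and left in. The calculations were tested on simulated data and used Python 3.11.15, NumPy 2.4.6, SciPy 1.17.1, pandas 2.3.3, scanpy 1.11.5 and matplotlib 3.10.9. Coordinates are from the Gencode annotation of GRCm39. Columns of samples outside the series numbered 0, and the 2 brain libraries were not used here. Alternatives changed the rule, the depth, the doublets, the scaling and the UMI minimum.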

Additional observations from a re-analysis of the deposited data

Results flagged for a closer look

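Nr4a3 and Sec14l3 were past 2-fold in opposite directions in the Bdnf and Hgf pairs, and with 1 library per group this difference was not tested. Nr4a3, an immediate-early nuclear receptor, had log2 ratios of 1.20 in the Bdnf pair and -1.56 in the Hgf pair, from 48.2, 110.8, 152.9 and 50.6 CPM in the 4 libraries. Sec14l3, a lipid-binding gene of airway epithelium, had 1.45 and -2.86, from 150.9, 412.5, 172 and 22.5 CPM.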

How the results depend on the processing

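Of 88 recomputed counts and shares, 51 stayed within 1.5 times the reported count, or within its interval for a share, and 37 did not. No paired analysis was possible because each genotype had 1 library, and for the same reason no library could be left out. With at least 4 of 6 markers the share of members was 1.11% in the Bdnf iPCKO and 0.474% in the Hgf iPCKO library, and Ltf, Cyp2a5 and Sult1d1 turned to log2 ratios of 0.81, 2.19 and 4.83, since the airway cell that carried them was left out. With no UMI allowed over the excluded genes the shares were 0.514, 0.568, 0.454 and 0.360%, with 169 genes higher in the Hgf iPCKO and 93 higher against alveolar fibroblasts. With Scrublet doublets left out the Bdnf iPCKO share was 1.45%. With barcodes thinned before the rule the first 3 libraries had 2.98, 2.62 and 1.44%. With a minimum of 20 UMIs, 556 genes were higher and 227 lower in the Bdnf pair, 673 and 682 in the Hgf pair, and 248 and 206 against alveolar fibroblasts. A minimum of 200 UMIs gave 54 and 14, 50 and 77, and 44 and 22, and thinning cells before summing gave 94 and 26, 29 and 33, and 32 and 25. Both of these leave fewer genes to call. Another scaling of the libraries, by the median of ratios, gave 182 and 88 in the Bdnf and 249 and 308 in the Hgf pair.

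The next alternatives were chosen after seeing the data. Without the limit on Hhip, Aspn and Upk3b the shares were 4.59, 4.27, 2.05 and 1.03%, with 111 genes lower in the Bdnf pair and 526 higher and 524 lower in the Hgf pair. Of the 40 named ratios of the pairs, 30 kept their call there, and the other 10, all of the Bdnf pair, kept their sign and were no longer past 2-fold. Without the members richer in epithelial than in collagen RNA, Sult1d1 had 2.99 and Gabrp -1.04, and the other 38 named ratios kept their call. In the Hgf pair the glucocorticoid list had most of its measured genes past 2-fold higher under every alternative run, the lowest share being 10 of 12 with at least 4 of 6 markers. The members of the Hgf iPCKO library held 356087 UMIs in all, the fewest of the 4 libraries, and the exact interval of a gene with no UMI there, such as Higd1b, reached 10.4 CPM.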

Other observations

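Members with and without a Pi16 UMI numbered 146 and 40 in the Bdnf control, 194 and 110 in the Bdnf iPCKO, 74 and 41 in the Hgf control and 31 and 67 in the Hgf iPCKO library. Cells with Pi16 had more Cd248, a stromal surface antigen picked out by hand, in all 4 libraries. It stood at 169 against 23.7 CPM, 82.2 against 67.6 CPM, 269.5 against 118.5 CPM and 70.3 against 43.9 CPM. Other adventitial genes did not keep 1 direction. Dpt stood at 1956 against 1033 CPM, 1185 against 1443 CPM, 1866 against 2288 CPM and 1390 against 1368 CPM. Ccl11 stood at 227 against 105 CPM, 143 against 179 CPM, 265 against 278 CPM and 172 against 368 CPM. Npnt, the alveolar fibroblast gene, was lower in cells with Pi16 in all 4 libraries, at 73.9 against 1016 CPM, 136 against 248 CPM, 82.3 against 407 CPM and 39.05 against 118 CPM. Pi16 is among the 6 markers of the rule, so members without it had fewer than 6. In the Bdnf control the 22 members with exactly 3 markers had 1743 CPM of Npnt, against 58.8 CPM in the 119 with all 6. Sftpc was lower with Pi16 in the Bdnf control, at 219.5 against 5807 CPM, and higher with it in the other libraries, at 1731 against 1656 CPM, 1086 against 299 CPM and 1554 against 846 CPM. Cells without Pi16 had fewer UMIs at the median in each library, and the part of depth in these differences was not tested.

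Gli1, an effector of Hedgehog signalling known from perivascular mesenchyme, stood at 76.9, 47.7, 109 and 98.3 CPM in members and at 1.89, 12.7, 0 and 3.71 CPM in alveolar fibroblasts. The transcription factor gene Twist2 stood at 134.5, 105, 190 and 101 CPM against 0.631, 1.05, 0 and 0 CPM. Ntf3, the ligand of TrkC and a relative of Bdnf, stood at 42.9, 30.6, 42.6 and 39.3 CPM in members, with 6.19, 5.19, 4.72 and 1.71 CPM in all other lung cells.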
